A study of Mus musculus with 8 samples.

Results

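CP4 is a subtype of chondrocyte progenitors (CPs) in the petrous temporal bone (PTB), the part of the skull that encloses the inner ear. Its members are the nuclei that the authors' deposited annotation calls CP4, matched by library and barcode to the deposited counts of unique molecular identifiers (UMIs). These are 1898 of the 31076 annotated PTB nuclei (6.11%), and the 4 PTB libraries held 63177 barcodes in all. The annotation divides the nuclei into 15 types: CP1 to CP6, 4 connective tissue types (CT1 to CT4), matured chondrocytes, 2 osteoblast types, a mixed class of hypertrophic chondrocytes and osteoblasts, and osteoclasts.

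The PTB was taken from wild-type (WT) and Tbx1+/- littermates at postnatal day (P) 5.5. Tbx1+/- mice carry 1 working copy of Tbx1, a T-box transcription factor gene, in every cell, so that a difference in CP4 need not start in CP4. Each genotype had 2 libraries, 1 from each of 2 batches of animals, and each library pooled the bones of 5 mice, so the 4 libraries and not the nuclei are the replicates. Nuclei were counted in droplets from the 3′ ends of transcripts, with intronic reads kept.

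Cartilage progenitors of this kind are known to make a matrix of type II, IX and XI collagen under the control of Sox9 before they mature. Chondrocytes also fill the matrix with aggrecan and its link protein. Hypertrophic chondrocytes and osteoblasts follow during ossification of the capsule around the inner ear. Wnt and hedgehog signals and Runx2 are known to steer skeletal progenitors between cartilage and bone.

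CP4 nuclei numbered 684 and 301 in the WT libraries (replicates 1 and 2) and 560 and 353 in the Tbx1+/- libraries. Their median depth was 3762 and 5349 UMIs in WT and 4066 and 4543 UMIs in Tbx1+/-. The sums over CP4 nuclei held 2022460 to 3011532 UMIs per library. Levels below are counts per 1000000 UMIs (CPM) of the summed nuclei of a type in a library. No CP4 barcode occurred in the CP4 nuclei of another library, while any pair of PTB libraries shared 45 to 82 barcodes overall. Mitochondrial UMIs were a median of 0.571% to 1.30% per CP4 nucleus and were higher in both replicate 1 libraries than in the replicate 2 libraries.

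Col2a1 (ENSMUSG00000022483, chr15:97975602-98004695 of GRCm38, minus strand), the gene of the main cartilage collagen, was at 1871 and 1144 CPM in CP4 of WT and at 1454 and 1349 CPM in CP4 of Tbx1+/-. The mean of 1454 ± 306 CPM (SD, n = 4) was the third highest of the 15 types, after matured chondrocytes with 3664 ± 1270 CPM (SD, n = 4) and CP5 with 1818 ± 227 CPM (SD, n = 4). Osteoclasts, a blood-derived type that should lack Col2a1, had 359 ± 120 CPM (SD, n = 4), and serve here as the background level. After thinning each nucleus to 1500 UMIs, a Col2a1 UMI remained in 72.0% to 86.4% of CP4 nuclei and in 29.4% to 47.3% of osteoclasts. Before thinning the shares were 96.0% to 98.6% and 68.4% to 84.6%, at median depths of 3762 to 5349 and 4963 to 7105 UMIs. Thinning left out 1 of the 1898 CP4 nuclei, which was shallower.

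Sox9 (ENSMUSG00000000567, chr11:112782224-112787760, plus strand), the master regulator of cartilage, was at 57.1 and 48.0 CPM in CP4 of WT and at 70.7 and 55.6 CPM in CP4 of Tbx1+/-. Its mean of 57.8 ± 9.44 CPM (SD, n = 4) was the fourth highest of the 15 types, within the spread of CP2 at 58.2 ± 7.21 CPM (SD, n = 4), and osteoclasts had 15.2 ± 6.12 CPM (SD, n = 4). Sox9 UMIs were found in 8.0% to 12.1% of thinned CP4 nuclei against 0.940% to 3.74% of thinned osteoclasts (19.7% to 27% and 7.0% to 11.2% before thinning). Both markers named for CP4 were therefore above the osteoclast level in all 4 libraries.

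Acan, the gene of aggrecan, was at 76.4, 56.4, 66.9 and 69.3 CPM in CP4 (WT replicates 1 and 2, then Tbx1+/- replicates 1 and 2), with a mean of 67.2 ± 8.29 CPM (SD, n = 4). Matured chondrocytes had 1333 ± 345 CPM (SD, n = 4), CP2 had 234 ± 11.7 CPM (SD, n = 4), CP1 had 191 CPM and osteoclasts had 36.7 ± 8.73 CPM (SD, n = 4). Among the CPs, CP1 and CP2 were thus above CP4 and CP3, CP5 and CP6 below it, with means of 46.8 to 49.5 CPM.

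**Figure D1:**
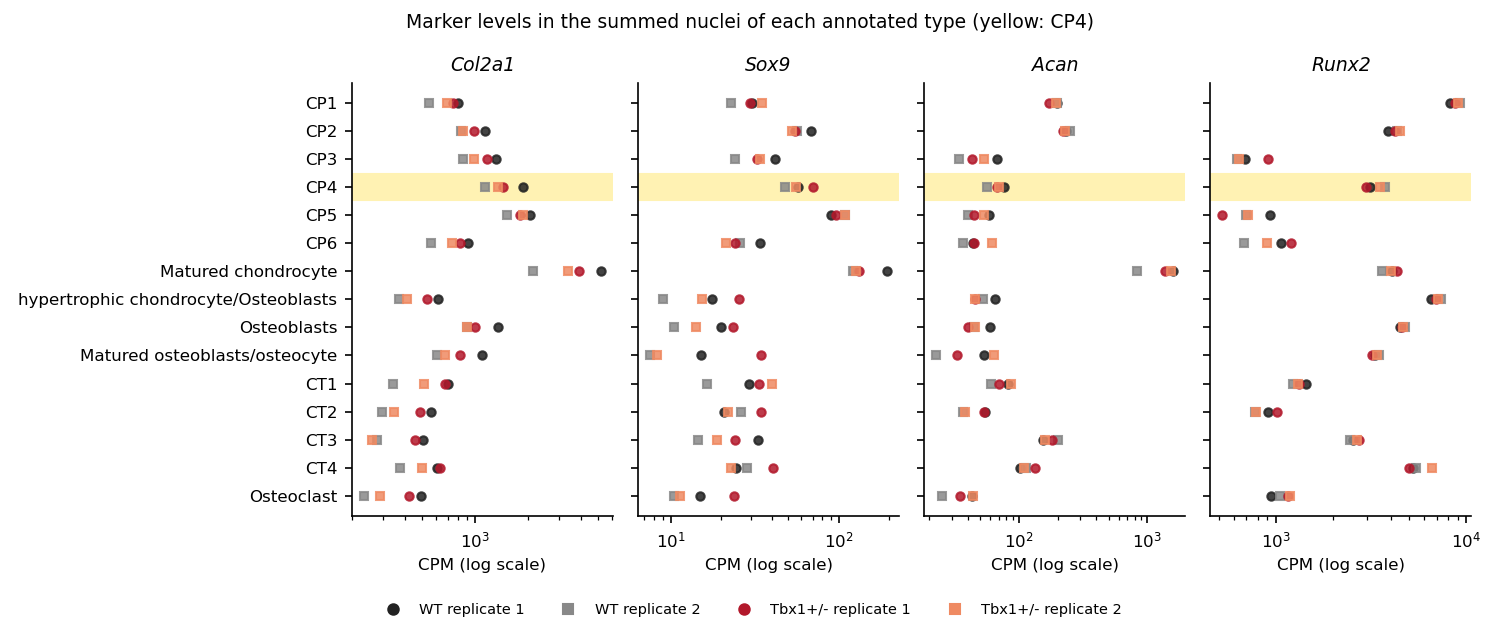
Levels of Col2a1, Sox9, Acan and Runx2 in CPM (log axis) in the summed nuclei of each of the 15 annotated types, with 1 point per library and CP4 shaded. CP4 lies near the top for Col2a1 and Sox9, at 1454 and 57.8 CPM on average, but not for Acan, at 67.2 CPM.

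The types were made from the same counts, so the levels of CP4 against other types are a description and were not tested. CP4 was compared with the sum of the other 5 CP subtypes in the same library, as the log2 ratio of CPM + 1. Among 10539 genes at a mean of 10 CPM or more in CP4, 14.9% were higher in CP4 in all 4 libraries and 23.0% were lower in all 4. Of the 6998 genes at 20 CPM or more in CP4 in each library, 69 were over 2-fold higher than in the other CPs in each library. Of the 7383 genes at that level in the other CPs, 30 were over 2-fold lower. CP4 was the highest of the 15 types for 33 of those 69 genes. Genes chosen by their ratio to the other CPs tend to rank high in CP4, so this count only describes them. The share over all genes is not given.

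Transcription factor genes were ranked within a list of symbol families that leaves out most zinc finger genes and takes in the Eya cofactors. Zfp536, a zinc finger factor gene outside that list that was noticed after its values were seen, had 424 CPM in CP4 and a mean log2 ratio of 1.78, at least 1.65 in each library, and CP4 was the second highest type for it. Within the list the leading gene was Lef1 (ENSMUSG00000027985, chr3:131110471-131224356, plus strand), which encodes a nuclear partner of beta-catenin in Wnt signalling. It was at 1176 and 1216 CPM in CP4 of WT and at 1262 and 1118 CPM in CP4 of Tbx1+/-. The other CPs together had 395 ± 13.8 CPM (SD, n = 4), a log2 ratio of 1.45 to 1.68. Every CP4 library was above every library of the other 14 types. CP1 followed at 534 ± 54.7 CPM, CP6 at 505 ± 33.0 CPM and CP2 at 442 ± 13 CPM (SD, n = 4 each), and osteoclasts had 78.5 ± 11.6 CPM (SD, n = 4). In thinned nuclei Lef1 UMIs were found in 64.9% to 71.2% of CP4, in 35.6% to 37.7% of CP2 and in 5.64% to 7.26% of osteoclasts. Before thinning the shares were 80.4% to 87.5%, 55.8% to 62.0% and 15.7% to 17.8%.

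Twist2 (ENSMUSG00000007805, chr1:91801461-91848028, plus strand), a basic helix-loop-helix factor of skeletal mesenchyme, came next and was the only other listed factor over 2-fold higher in each library. It was at 40.2, 43.5, 38.9 and 32.2 CPM in CP4, against 15.4 ± 2.02 CPM (SD, n = 4) in the other CPs. CP3 was close to CP4 for Twist2, at 36.2 CPM, so the factor set CP4 apart from the sum of the CPs but not from CP3.

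The promoters of both factors are shown because these genes led the ranking within the listed families. Each is a window of 300 bases, 250 before and 50 after the RefSeq start (GRCm38.p6), printed in lower case with E-boxes (CANNTG, either strand), the motif of the Twist family, in capitals. Lef1 has more than 1 start in RefSeq, and the one listed first is shown, chr3:131110047-131110346 on the plus strand. The Twist2 window is chr1:91801211-91801510 on the plus strand.
Lef1: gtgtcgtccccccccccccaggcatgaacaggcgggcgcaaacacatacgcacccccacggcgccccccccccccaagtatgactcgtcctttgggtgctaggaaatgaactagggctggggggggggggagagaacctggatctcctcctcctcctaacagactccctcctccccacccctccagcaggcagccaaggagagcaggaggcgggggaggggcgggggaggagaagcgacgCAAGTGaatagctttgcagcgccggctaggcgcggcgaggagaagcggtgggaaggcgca
Twist2: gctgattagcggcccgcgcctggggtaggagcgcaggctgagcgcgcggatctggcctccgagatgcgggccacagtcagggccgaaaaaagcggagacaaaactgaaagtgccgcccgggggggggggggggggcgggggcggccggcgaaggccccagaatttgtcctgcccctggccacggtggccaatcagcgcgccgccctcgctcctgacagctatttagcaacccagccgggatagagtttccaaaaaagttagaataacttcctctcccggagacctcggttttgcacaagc
The Lef1 window held 1 E-box and the Twist2 window none, while 72.3% of the 32851 promoters in the table held at least 1. The TCF/LEF core CTTTGA, on either strand, was in neither window and in 16% of all promoters. These matches describe the letters and say nothing of binding.

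The other leading factors of the list were higher by smaller ratios. Irx1, an Iroquois homeobox gene, was at 31.5 ± 1.56 CPM (SD, n = 4) in CP4 against 13.9 ± 0.926 CPM (SD, n = 4) in the other CPs. CP4 was again the highest type, but CP5 alone was not far below it, at 25.3 CPM. Foxd1, a forkhead gene of mesenchyme, was at 62.8 ± 5.11 against 29.5 ± 1.15 CPM (SD, n = 4 each), but CT2 had 220 CPM. Etv1, Ebf4, Eya2, Tshz3 and Nfatc2 had mean log2 ratios of 0.73 to 0.88. CP4 was the highest of the 15 types for 4 of the 10 listed factors and among the 3 highest for all 10. Their choice by the ratio to the other CPs favours such ranks.

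Among all genes, the 15 with the highest ratio in their least favourable library included Ankrd55, 9630002D21Rik, Plppr4, Adcy7, Gria1, Grin2a, Lingo2, Galnt17, Trhde, Lrrtm4, Lrrc4c, Fgf12, Cerk and 5430419D17Rik. The lowest ratios of the 15 over libraries ran from 1.75 to 2.80 on the log2 scale. Several are best known from neurons. Gria1 and Grin2a encode subunits of AMPA and NMDA glutamate receptors, Lrrtm4, Lrrc4c and Lingo2 encode membrane proteins with leucine-rich repeats, and Plppr4 encodes a phospholipid phosphatase-related membrane protein.

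Lrrtm4 (chr6:80018877-80810143, plus strand) was at 1364 and 1499 CPM in CP4 of WT and at 1579 and 1646 CPM in CP4 of Tbx1+/-, against 337 ± 48.8 CPM (SD, n = 4) in the other CPs. CP6 was the next type with 1037 CPM, and gave 36.4% to 45.9% of the Lrrtm4 UMIs of the other CPs per library. After thinning, 58.7% to 62.5% of CP4 nuclei held a Lrrtm4 UMI, against 7.85% to 9.55% of CP2 nuclei and 4.08% to 6.16% of osteoclasts. Before thinning the shares were 71.1% to 73.4%, 14.1% to 17% and 12.4% to 14.5%.

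Grin2a was at 287.6 and 230.9 CPM in CP4 of WT and at 300.8 and 311.9 CPM in CP4 of Tbx1+/-, against 43.0 ± 3.78 CPM (SD, n = 4) in the other CPs. Its UMIs were found in 18.7% to 27.2% of thinned CP4 nuclei and in 0% to 1.25% of thinned osteoclasts (32.2% to 43.3% and 1.88% to 3.08% before thinning). In the library at 0, 7 of the 357 osteoclasts held a UMI before thinning (1.96%). Only a minority of CP4 nuclei thus showed a Grin2a UMI at this depth.

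Trhde (chr10:114398823-114802307, minus strand), which encodes the ectoenzyme that degrades thyrotropin-releasing hormone, was at 206, 218, 234 and 222 CPM in CP4. The next type was CP2 at 76.1 CPM. Plppr4 (chr3:117319139-117360876, minus strand) was at 138, 138, 134 and 117 CPM in CP4, and the next type, CP5, had 69.6 CPM.

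CP4 was the highest of the 15 types for 11 of these 15 genes and the second highest for the other 4, Ankrd55, Gria1 and Galnt17 among them. These ranks, too, are favoured by the choice of the genes. The sum of the listed neuron markers was 415 to 568 CPM in CP4 and lower than in the other CPs in all 4 libraries. CP4 was the fourth highest of the 15 types for this sum, which CP6 led with 3469 CPM. Syt1 and Nrxn3 carried most of it in CP4, at 237 and 175 CPM, while Rbfox3 had 2 to 6 UMIs per library. The 69 genes over 2-fold higher in CP4 had a median gene span of 154 kb, against 46.4 kb for the 6993 genes with a span at that level. The 30 genes over 2-fold lower also had long spans, with a median of 185 kb.

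**Figure D2:**
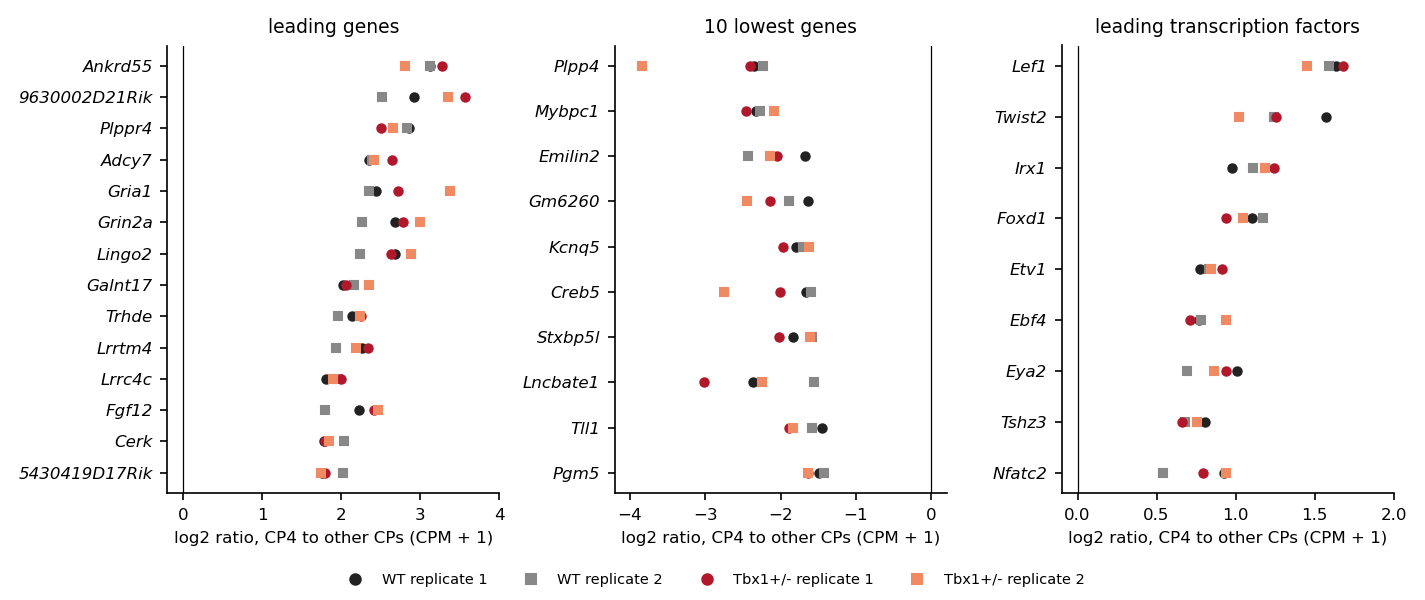
Log2 ratio of CPM + 1 in CP4 to that in the other CPs, with 1 point per library, for leading genes, the 10 lowest genes and leading transcription factors. All 4 libraries lie on the same side of 0 for every gene drawn, which follows from choosing them by their least favourable library, and Lef1 and Twist2 exceed 1 in each.

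The 10 lowest genes were Plpp4, Mybpc1, Emilin2, Gm6260, Kcnq5, Creb5, Stxbp5l, Lncbate1, Tll1 and Pgm5, with mean log2 ratios of -2.71 to -1.54. For 5 of them CP6 was the highest of the 15 types, and CP4 was among the 3 highest types for 3. Mybpc1, a myosin-binding protein gene, was at 43.7 ± 9.60 CPM (SD, n = 4) in CP4 and at 1115 CPM in CP6. Creb5, a transcription factor gene of joint cartilage, was at 56.1, 69.2, 43.1 and 28.8 CPM in CP4 and at 1234 CPM in CP6. Kcnq5, a potassium channel gene, was at 268 ± 57.0 CPM (SD, n = 4) in CP4 and highest in matured chondrocytes, at 2225 CPM. Tll1 encodes a protease of the BMP1 family that processes collagen precursors, and was at 27.5 ± 6.07 CPM (SD, n = 4) in CP4 against 90.6 ± 17 CPM (SD, n = 4) in the other CPs.

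CP2, CP3 and CP5 were most like CP4. Across 13126 genes the correlation of log2(CPM + 1), averaged over libraries, was 0.950 with CP2, 0.938 with CP3 and 0.933 with CP5, and 0.769 with osteoclasts. These are correlations across genes of sums from the same library, and genes are not independent replicates. All 15 leading genes were higher in CP4 than in each of CP2, CP3 and CP5 in every library. Of the 10 leading factors, 10 were higher in CP4 than in CP2, 9 than in CP3 and 9 than in CP5, in every library. Both sets were chosen by their ratio to a sum that holds CP2, CP3 and CP5. The choice itself favours such counts, so they do not test whether these genes set CP4 apart from those types. The 10 lowest genes were mixed: 4 were higher in CP4 than in CP5 in every library and 5 were lower.

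For each list, only members at a mean of 10 CPM or more in CP4 were counted, so members low in CP4 were left out. Of 18 listed chondrocyte genes at this level, 8 were higher in CP4 than in the other CPs in all 4 libraries. Another 10 were lower in all 4. The median log2 ratio was -0.20, against -0.04 over the 10539 genes. The higher ones were Sox9, Matn4, a matrilin gene, and all 6 collagen genes of the list. Col11a1 was at 2520 ± 145 CPM, Col9a1 at 1132 ± 184 CPM and Col9a2 at 248.5 ± 58.1 CPM in CP4, against 2046 ± 127, 655 ± 100 and 152 ± 32.6 CPM in the other CPs (SD, n = 4 each). The lower ones included Sox6, which cooperates with Sox9, at 316 ± 62.0 against 732 ± 45.4 CPM, and Fgfr3, a brake on chondrocyte growth, at 28.3 ± 2.96 against 57.6 ± 5.21 CPM (SD, n = 4 each). CP1 and CP2 set the level of Sox6 in the other CPs, at 1163 and 1018 CPM, while CP5, CP6 and CP3 were below CP4, at 268, 211 and 184 CPM. Hapln1, the link protein gene, was at 22.3 ± 12.3 against 48.6 ± 9.85 CPM (SD, n = 4 each).

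Of 9 hypertrophic chondrocyte genes, 1 was higher in all 4 libraries and 3 were lower. Runx2, required for osteoblasts and hypertrophy, was at 3348 ± 360 CPM in CP4 and at 4031 ± 242 CPM in the other CPs (SD, n = 4 each). CP1 had 8806 CPM and CP2 had 4233 CPM, whereas CP6, CP3 and CP5 were below CP4, at 961, 717 and 716 CPM. Col10a1, the marker of hypertrophy, was at 17.6 ± 12.5 CPM (SD, n = 4), the lowest of the 15 types. Of 14 osteoblast and osteocyte genes, 6 were higher and 3 lower. Phex, an endopeptidase gene of phosphate balance in osteocytes, was at 509 ± 43.1 against 264 ± 42.4 CPM (SD, n = 4 each), far below the 5817 CPM of matured osteoblasts and osteocytes.

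Of 18 fibrous matrix genes, 7 were higher and 7 lower in all 4 libraries. Gpc3, a glypican gene, was at 386 ± 63.1 against 215 ± 5.11 CPM (SD, n = 4 each), but CP2 alone was within the spread of CP4, at 372 ± 8.23 CPM (SD, n = 4), and CT2 and CT1 were higher. Tnc, the tenascin C gene, was at 314 ± 41.2 against 509.6 ± 45.3 CPM (SD, n = 4 each). Of 5 tendon and ligament genes, 2 were higher and 1 was lower. Col14a1, a fibril-associated collagen gene, was at 396 ± 25.4 against 225 ± 7.12 CPM (SD, n = 4 each). Of 7 stem and perichondrial progenitor genes, 5 were higher and 1 was lower, with a median log2 ratio of 0.34. Among them Lepr, the leptin receptor gene of stromal progenitors, was at 130 ± 7.13 against 65.1 ± 7.66 CPM, and the chemokine gene Cxcl12 at 115 ± 20.5 against 58.8 ± 11.4 CPM (SD, n = 4 each). Of 5 joint progenitor genes, 1 was higher and 4 were lower. Gdf5, the classic joint gene, had no UMI in CP4 of any library, which allows up to 3 counts per library.

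The periotic list stood mostly below the other CPs. Of 14 genes, 2 were higher and 8 lower, with a median log2 ratio of -0.40. Eya1, a cofactor of ear development, was at 772 ± 67.1 against 957 ± 65.8 CPM, and Tbx18, a T-box gene of periotic mesenchyme, was at 282 ± 29.1 against 423 ± 28.4 CPM (SD, n = 4 each). Of 9 inner ear fibrocyte genes, 2 were higher and 4 lower. Slc4a10, a bicarbonate transporter gene, was at 137 ± 30.7 against 56.5 ± 12.1 CPM (SD, n = 4 each), and CT2 was much higher at 1082 CPM. Of 13 meningeal fibroblast genes, 1 was higher, Foxd1, and 7 were lower.

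Of 22 Wnt genes, 5 were higher in all 4 libraries and 5 were lower. Their summed level of 2940 to 3089 CPM was the highest of the 15 types, but without Lef1 it was 1764 to 1853 CPM and the seventh highest, against 1827 to 1908 CPM in the other CPs. Axin2, a common target of Wnt signalling, was at 34.0 ± 5.80 against 43.2 ± 2.49 CPM, and the Wnt inhibitor gene Frzb at 21.0 ± 5.94 against 49.1 ± 3.11 CPM (SD, n = 4 each), both lower in all 4 libraries. Another inhibitor gene, Dkk2, was higher, at 37.9 ± 5.5 against 21.4 ± 4.43 CPM (SD, n = 4 each).

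Of 11 hedgehog genes, 5 were higher and 5 were lower. Ptch1 and Gli1, which encode a receptor and a transcription factor of the pathway, were higher by mean log2 ratios of 0.19 and 0.27. Hhip, an inhibitor gene, was lower, at 220.1 ± 30.1 against 310 ± 39.1 CPM (SD, n = 4 each). The sum of the listed hedgehog genes was lower in CP4 than in the other CPs in all 4 libraries. It was 1633 to 1787 CPM in CP4 and 1698 to 1890 CPM in the other CPs.

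Of 13 FGF genes, 7 were higher and 4 were lower. The receptor gene Fgfr1 was at 398 ± 23.6 against 287.5 ± 11.8 CPM, and Fgfr2 at 1089 ± 106 against 1247 ± 81.7 CPM (SD, n = 4 each). The FGF target genes Spry4, Dusp6, Etv4 and Etv5 were each higher in all 4 libraries. They were at 11.7, 13.1, 25.7 and 41.9 CPM in CP4 against 5.07, 7.56, 15.3 and 33.4 CPM. Spry4 and Dusp6 were thus under 10 CPM in the other CPs and were counted only because the cut was on CP4. The shared direction of these targets is therefore partly a product of the cut. Spry1 and Spry2 of the same list were not counted, as both were under a mean of 10 CPM in CP4. Over libraries they were at 2.44 to 5.67 and 6.80 to 10.6 CPM there. Of 24 BMP and TGF-beta genes, 7 were higher and 8 lower. Gdf10, a ligand gene of the family, was at 65.2 ± 25.3 against 34.8 ± 12.3 CPM (SD, n = 4 each), the highest of the 15 types. Bmpr1b, a BMP receptor gene of cartilage condensation, was at 171 ± 16.4 against 100.4 ± 8.62 CPM, and Bmp4 at 16 ± 2.98 against 36.7 ± 7.17 CPM (SD, n = 4 each).

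Of 9 retinoic acid genes, 3 were higher and 4 lower. The receptor gene Rarb was at 394.5 ± 50.1 against 203 ± 18.9 CPM (SD, n = 4 each). The highest other type for Rarb had 461 and 549 CPM in WT and 543 and 586 CPM in Tbx1+/-, above the CP4 mean. Aldh1a1, which makes the ligand, was at 64.0 ± 10.6 against 138 ± 4.73 CPM (SD, n = 4 each). Of 8 Notch genes, 5 were higher and 1 was lower, Jag1. The coactivator genes Maml2 and Maml3 were at 937 ± 68.4 and 716 ± 34.4 CPM in CP4 against 764 ± 33.7 and 520 ± 25.6 CPM (SD, n = 4 each).

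The proliferation lists were lower in CP4 than in the other CPs, whose sum holds the highest type, CP2. Of 29 S phase genes at 10 CPM or more, none was higher in CP4 in all 4 libraries and 20 were lower in all 4, with a median log2 ratio of -0.31. Of 35 G2/M genes, 1 was higher and 30 were lower, with a median of -0.53. The G2/M sum was 1327 to 1415 CPM in CP4 and 1739 to 1938 CPM in the other CPs. Among the 15 types CP4 was the seventh highest for the S phase sum, at 871 CPM against 1498 CPM in CP2, and the ninth highest for the G2/M sum, at 1368 CPM against 2618 CPM in CP2.

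**Figure D3:**
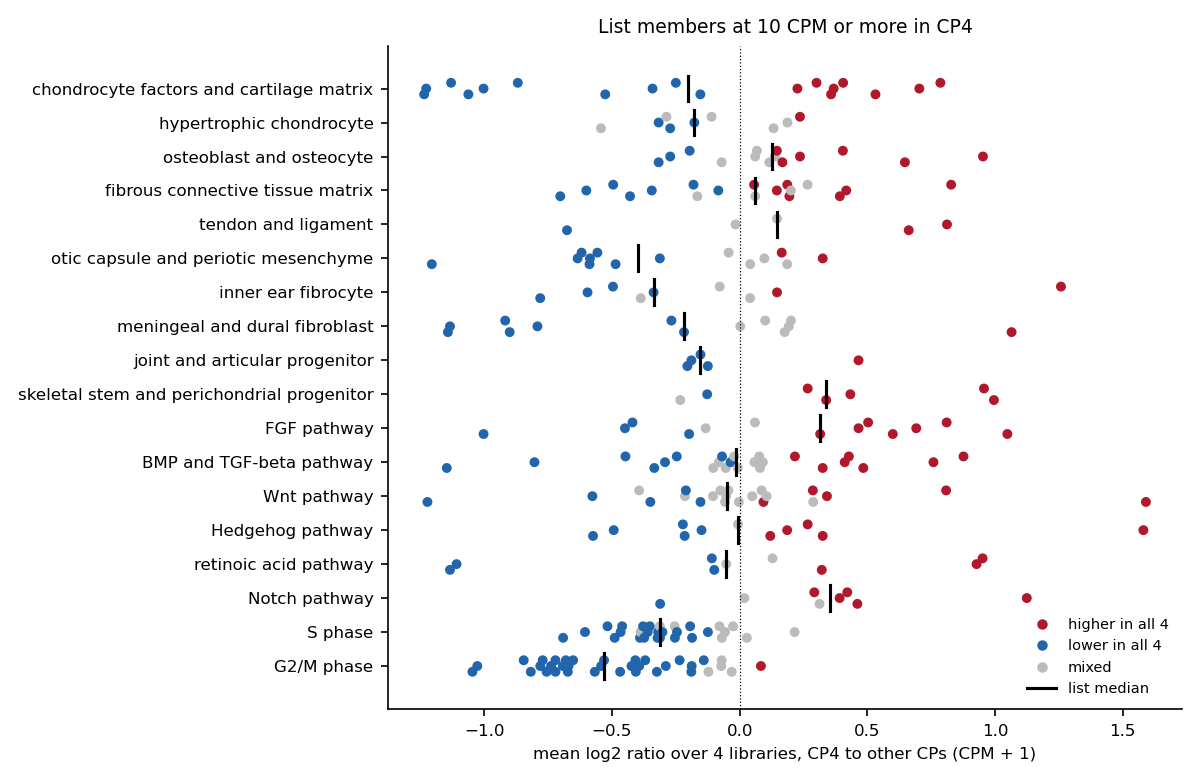
Mean log2 ratio of CP4 to the other CPs over 4 libraries for each list member at 10 CPM or more in CP4. Members low in CP4 are thus not drawn. Colour shows whether a member was higher in all 4 libraries, lower in all 4 or mixed. The bar is the median of each list drawn. The lists of markers of other cells are not drawn. Among the lists drawn, the medians lie lowest for the G2/M list (-0.53) and the periotic list (-0.40). They lie highest for the Notch (0.35) and progenitor (0.34) lists.

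Markers of other cells in CP4 differed between libraries. Skeletal muscle markers summed to 276 and 255 CPM in the replicate 1 libraries and to 47.0 and 32.2 CPM in the replicate 2 libraries. Erythroid markers summed to 735 and 658 CPM in the replicate 1 libraries and to 504 and 454 CPM in the replicate 2 libraries, and osteoclast markers to 369 to 1072 CPM in WT and 751 to 879 CPM in Tbx1+/-. The macrophage sum was 81.6 to 103 CPM in WT and 102 to 110 CPM in Tbx1+/-. Of the 6 macrophage markers, 4 were higher in Tbx1+/- and 2 lower, none of them called. Both Tbx1+/- libraries lay above WT for 3 of them, 50% beside 12.3% of all genes tested. In the same order, the endothelial sum was 193 to 226 and 208 to 227 CPM, and the pericyte sum 83.6 to 126 and 82.5 to 128 CPM. The glial sum was 146 to 279 and 153 to 337 CPM, and the epithelial sum 70.7 to 92.0 and 63.9 to 79.6 CPM. For the neuron list the genotypes did not overlap, with 459 to 568 CPM in WT and 415 to 420 CPM in Tbx1+/-. Of its 5 members tested, 3 were higher in Tbx1+/- and 2 lower, and for each of the 5 the CPM of the genotypes overlapped. Of the 6 epithelial markers, Pax8 was at 0 in all 4 libraries. The part of these markers in the results below was not tested.

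The next question was whether the CP4 population differed between genotypes. CP4 made up 6.86% and 5.03% of annotated nuclei in WT and 6.43% and 5.5% in Tbx1+/-. The Tbx1+/- libraries lay between the WT libraries. The log2 difference, Tbx1+/- against WT, was 0.0053 (standard error 0.24, adjusted p = 0.983 over 15 types, edgeR's quasi-likelihood test), and 0 of the 15 types passed a false discovery rate of 0.1 or had an unadjusted p under 0.05 in this fit or with DESeq2. Tbx1+/- was lower than WT in replicate 1 and higher in replicate 2.

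Among CP nuclei alone, CP4 made up 15.6% and 12.4% in WT and 17.8% and 14% in Tbx1+/-. Tbx1+/- was higher than WT of the same replicate number, by log2 differences of 0.19 and 0.18, with overlapping groups. The mean difference was 0.18 (exact two-sided permutation test, p = 0.67). With 2 libraries against 2 the smallest p that this test allows is 0.33. The median UMIs per CP4 nucleus differed by -0.06 on the log2 scale (exact permutation test, p = 1.0), with WT replicate 2 the deepest library. These p-values measure the spread between libraries, each from a pool of mice, and the 2 libraries of a genotype differ in batch as well.

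**Figure D4:**
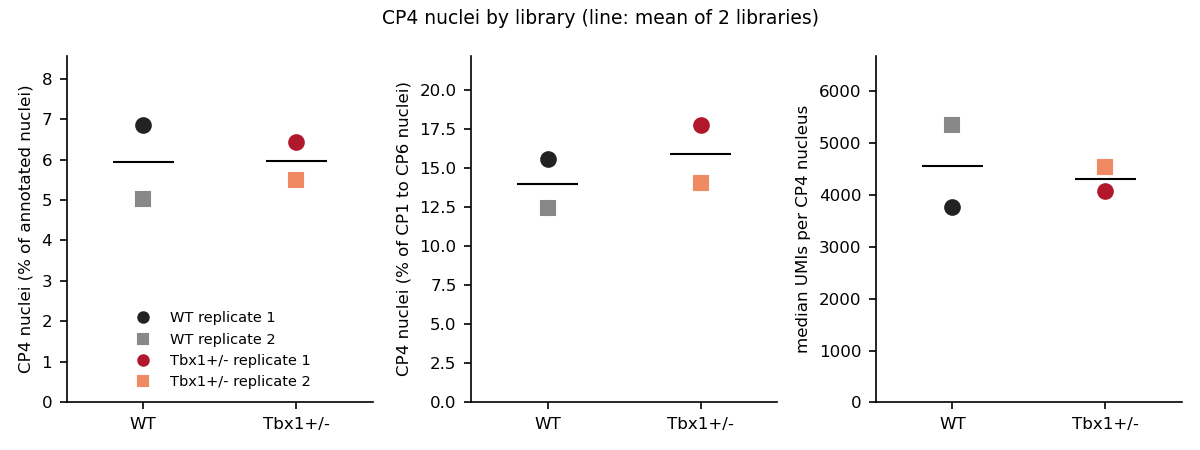
CP4 nuclei as a percentage of annotated nuclei and of CP1 to CP6 nuclei, and the median UMIs per CP4 nucleus, with 1 point per library and the mean of each genotype as a line. The groups overlap in each panel, with shares of annotated nuclei between 5.03% and 6.86%.

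Tbx1 (ENSMUSG00000009097, chr16:18580979-18590671, minus strand), the gene of which the mutants lack 1 copy, had 154 and 142 UMIs in CP4 of WT and 114 and 106 UMIs in CP4 of Tbx1+/-. These are 51.1 and 70.2 CPM in WT and 43.1 and 51.7 CPM in Tbx1+/-. Tbx1 was lower in Tbx1+/- than in WT of the same replicate number in both cases, but the groups overlapped slightly, with a fitted difference of -0.34 on the log2 scale (standard error 0.21, edgeR's adjusted p = 1.00). Osteoclasts had 11.2 ± 3.50 CPM (SD, n = 4). In thinned nuclei, Tbx1 UMIs were found in 5.10% to 10.3% of CP4 and in 0.560% to 1.64% of osteoclasts (15.5% to 27.9% and 3.52% to 8.44% before thinning). CP4 was the third highest of the 15 types for Tbx1, within the spread of CP1 at 51.1 ± 9.28 CPM (SD, n = 4). The genotype change in CP4 differed from that in the other CPs by 0.03 on the log2 scale (standard error 0.16, adjusted p = 1.00, edgeR). Whether the counted reads lie in the deleted sequence was not examined, so these values do not check the genotype.

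Across 13343 genes tested in CP4, none was called between genotypes at an adjusted p under 0.05 and a change over 1.5-fold (edgeR without a replicate block, percent called 0). At an unadjusted p under 0.05 there were 141 genes, and with DESeq2 0 were called and 20 had such a p. The CPM of the genotypes did not overlap for 24.2% of all genes tested, in Tbx1+/- above WT for 12.3% and below for 11.9%. No listed gene was called. Of 20 chondrocyte genes tested, 10 were higher in Tbx1+/- and 10 lower, and 3 did not overlap. Of 15 osteoblast and osteocyte genes, 8 were higher and 7 lower, and 1 did not overlap. Medians of the log2 change were 0.0001 and 0.07 for these lists, beside 0.01 over all genes.

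Among the 16 other tissue, pathway and phase lists the medians ran from -0.09 (periotic list) to 0.11 (retinoic acid list). Of 9 hypertrophic genes, 2 were higher and 7 lower, and of 10 Notch genes, 7 were higher and 3 lower, none of them called. Of 48 G2/M genes, 28 were higher and 20 lower, and 10 lay above WT in both Tbx1+/- libraries and 4 below, 20.8% and 8.33% beside 12.3% and 11.9% of all genes. Of 41 S phase genes, 16 were higher and 25 lower, and 4 lay above WT and 8 below, 9.76% and 19.5%. Of 17 FGF genes, 11 were higher and 6 lower, and 4 lay above WT and 2 below, 23.5% and 11.8%. Lef1 was at 1176 and 1216 against 1262 and 1118 CPM, with overlapping genotypes.

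The 10 genes with the smallest unadjusted p and the same sign in both comparisons of same-numbered libraries were Car8, Pax3, Epha3, Gm4128, Kcnh8, Cdh19, Dysf, Sgcz, Gm49767 and Rbm47, none with an adjusted p under 1.00 after rounding (edgeR). Sgcz, a sarcoglycan gene, was at 125 and 115 CPM in WT and at 87.3 and 76.6 CPM in Tbx1+/-. Cdh19, a cadherin gene known from Schwann cell precursors, had 23 and 7 UMIs in WT and 41 and 35 UMIs in Tbx1+/-. Pax3, a paired box gene, had 3 and 1 UMIs in WT and 33 and 13 in Tbx1+/-, but 20 of the 33 came from 1 nucleus.

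The last question was whether any gene changed with genotype in another way in CP4 than in the other CPs. The interaction was tested on 8 sums, CP4 and the other 5 CP subtypes in each library, with library as a term. Of 16985 genes, 2 passed (0.0118%, edgeR), both lower in CP4 of Tbx1+/-, and 782 had an unadjusted p under 0.05. With DESeq2 none passed, with 56 such genes.

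Car8 (ENSMUSG00000041261, chr4:8143362-8239041, minus strand) encodes a carbonic anhydrase-related protein without catalytic activity that is best known from Purkinje cells. It had 103 and 62 UMIs in CP4 of WT and 32 and 21 UMIs in CP4 of Tbx1+/-. These are 34.2 and 30.7 CPM against 12.1 and 10.2 CPM, and the groups did not overlap. In the other CPs it was at 47.8 and 46.5 CPM in WT and at 52.2 and 51.3 CPM in Tbx1+/-. The change in CP4 minus that in the other CPs was -1.66 on the log2 scale (standard error 0.23, adjusted p = 1.19e-04, edgeR), and -1.55 from the replicate 1 libraries and -1.63 from the replicate 2 libraries.

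CP1, at 134 ± 11.6 CPM (SD, n = 4), gave 68.4% to 72.9% of the Car8 UMIs of the other CPs per library, whereas CP3, CP5 and CP6 had means of 8.20 to 9.77 CPM. CP4 of WT was above osteoclasts, which had 22.6 and 19.0 CPM, and CP4 of Tbx1+/- was below osteoclasts, which had 21.0 and 22.5 CPM. Car8 UMIs were found in 62 of 684 and 27 of 301 CP4 nuclei in WT (9.06% and 8.97%) and in 26 of 560 and 14 of 353 in Tbx1+/- (4.64% and 3.97%). In osteoclasts, which were deeper, the share was 9.13% to 10.9%. At equal depth it was 3.36%, 3.67%, 1.79% and 1.42% in CP4 and 2.19% to 3.36% in osteoclasts, with the WT shares slightly above and the Tbx1+/- shares below those of osteoclasts of the same library. The unthinned shares in CP4 were below those of osteoclasts in all 4 libraries, at lower depth. Since osteoclasts were themselves above CP3, CP5 and CP6 in Car8, their level is not a floor for this gene, and these shares do not settle how many CP4 nuclei express it. One nucleus of WT replicate 2 held 20 of its 62 UMIs. Without the nucleus with the most Car8 UMIs in each library, an alternative chosen after seeing the data, the difference was -1.57 (adjusted p = 0.00453, edgeR).

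Epha3 (ENSMUSG00000052504, chr16:63543534-63864175, minus strand) encodes an ephrin receptor that guides cell contacts. It had 283 and 203 UMIs in CP4 of WT and 169 and 119 UMIs in CP4 of Tbx1+/-, that is 94.0 and 100.4 CPM against 63.9 and 58.1 CPM. The groups did not overlap. The other CPs had 169 and 158 CPM in WT and 171 and 189 CPM in Tbx1+/-. CP6, at 908 ± 70.0 CPM (SD, n = 4), gave 59.3% to 78.5% of their Epha3 UMIs per library. The difference of changes was -0.79 (standard error 0.14, adjusted p = 0.00871, edgeR), and -0.57 from the replicate 1 libraries and -1.04 from the replicate 2 libraries. In thinned nuclei the share with an Epha3 UMI was 11.0% and 8.67% in CP4 of WT, 8.75% and 7.37% in CP4 of Tbx1+/-, and 1.25% to 3.75% in osteoclasts. Before thinning it was 18% to 22.3% in CP4 and 5.32% to 10.1% in osteoclasts.

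Both calls were lost with DESeq2, at adjusted p = 0.0933 for Car8 and 1.00 for Epha3. Both were also lost without the 8% of nuclei with the most UMIs in each library, at -1.30 (adjusted p = 0.220) for Car8 and -0.56 (adjusted p = 0.292) for Epha3 with edgeR. Without Tbx1+/- replicate 2 the adjusted p of Epha3 was 0.0803 (edgeR).

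**Figure D5:**
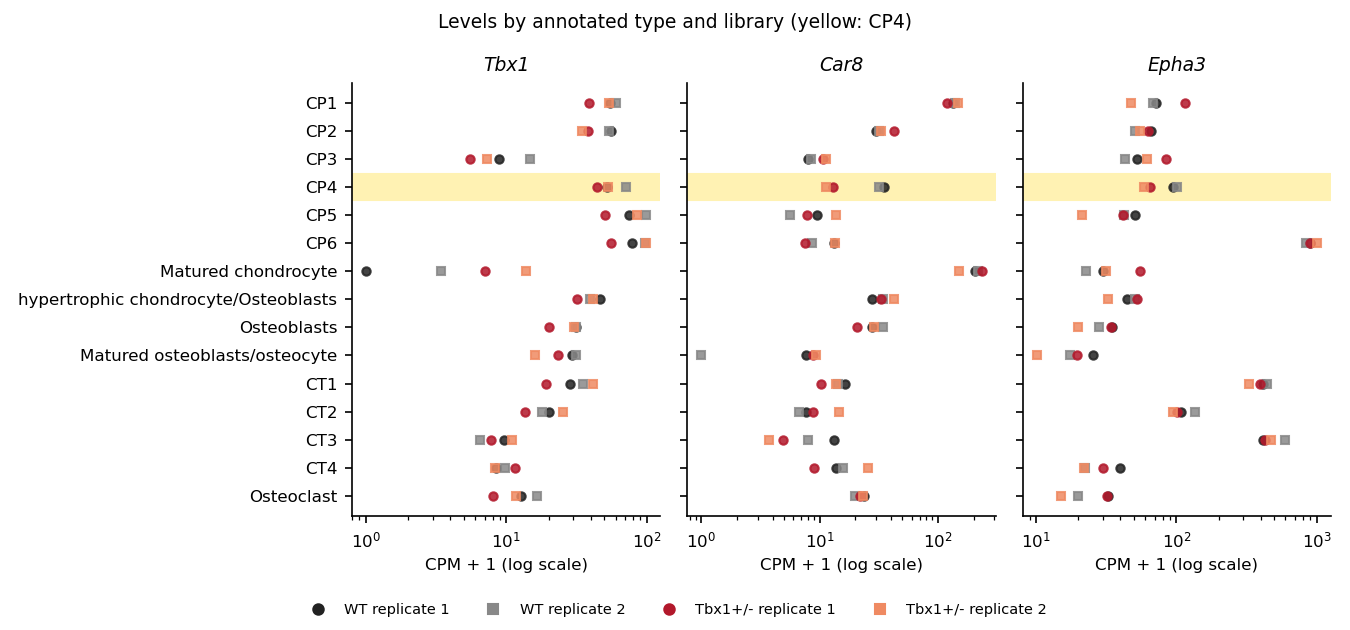
Levels of Tbx1, Car8 and Epha3 as CPM + 1 (log axis) in the summed nuclei of each annotated type, with 1 point per library and CP4 shaded. In CP4 the WT libraries lie at 34.2 and 30.7 CPM for Car8 and at 94.0 and 100.4 CPM for Epha3, to the right of the Tbx1+/- libraries, while the genotypes overlap for Tbx1.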

How the data were processed

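Members, lists and tests were chosen with earlier results of these data known. The authors deposited UMI counts from Cell Ranger 7.0.0, run on mm10 with introns included, before any removal of ambient RNA. Cell types are those the authors deposited. With Python 3.11.15, the UMIs of each type were added up within each library. These sums were compared with edgeR 4.0.16 (filterByExpr, TMM, quasi-likelihood test, Benjamini-Hochberg adjustment) in R 4.3.3. For type shares, edgeR's quasi-likelihood test and this adjustment took a library's annotated nuclei as the whole, without TMM factors. DESeq2 1.42.0 was the alternative in both cases. The scripts were tested on simulated data. Each standard error was derived from the estimate and its F statistic. Doublets were not called. Floors and intervals cover counting error only. Coordinates are from GENCODE (GRCm38) and promoters from RefSeq.

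Named genes are the 15 that lead and the 10 that trail the ratio of CP4 to the other CPs in their least favourable library (20 CPM or more), the 10 leading transcription factors of listed symbol families (10 CPM or more), called genes or the 10 of smallest p, and Tbx1. Examples from lists include those of highest CPM in CP4, and the others were chosen after their values were seen. The sources used here do not say which batch of animals a replicate number stands for, and the main tests used no replicate block. Some genes that the rule selects are not reported here.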

Additional observations from a re-analysis of the deposited data

Results flagged for a closer look

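Car8 and Epha3 were flagged because their genotype change in CP4 differed from that in the other CP subtypes by a test of the difference itself. The difference was -1.66 on the log2 scale for Car8 and -0.79 for Epha3 (edgeR's quasi-likelihood test, adjusted p = 1.19e-04 and 0.00871), and both genes were lower in CP4 of Tbx1+/- than in CP4 of WT with either replicate number. Car8 passed again when any 1 of the 4 libraries was left out (-1.79 to -1.58), and Epha3 passed in 3 of these 4 fits (-0.94 to -0.66), the exception being the fit without Tbx1+/- replicate 2 (adjusted p = 0.0803). Both calls were lost with DESeq2 (adjusted p = 0.0933 and 1.00) and without the 8% of nuclei with the most UMIs in each library (edgeR's adjusted p = 0.220 and 0.292).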

How the results depend on the processing

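The log2 difference in the CP4 share of annotated nuclei changed sign, without passing the threshold, with nuclei of at least 2000 genes (-0.0067), and ranged from -0.20 without WT replicate 2 to 0.25 without WT replicate 1. The fit with the replicate block gave 0.02 and the same call. No type passed under any setting. CP3 had an unadjusted p under 0.05 with the block (edgeR), and its log2 difference was -0.80 without Tbx1+/- replicate 2. With all barcodes as the whole, 2 types had such a p (edgeR). These were matured osteoblasts and osteocytes, and the mixed class of hypertrophic chondrocytes and osteoblasts. Among CP nuclei the share differed by 0.015 to 0.35 without 1 library and by 0.18 with the replicate block. The median UMIs per nucleus differed by -0.32 to 0.19 without 1 library. Genes called between genotypes in CP4 numbered 5 with no filter on low counts, 1 with the replicate block and 0 to 3 without 1 library (3 without WT replicate 2: Mgp, Bpifa1 and Ttr). Libraries of a number are not stated to form a pair, and their deviations in CP4 had a correlation of 0.292 across 13343 genes. With the block the genes at an unadjusted p under 0.05 rose from 141 to 315. The 1 gene called with it, Bpifa1 (adjusted p = 0.00392, edgeR), was at 220.2, 42.0, 57.8 and 5.86 CPM in CP4 and at 135.6 to 517 CPM in WT replicate 1 and 1.46 to 7.01 CPM in Tbx1+/- replicate 2 over the 14 other types. One nucleus of WT replicate 1 held 223 of its 663 Bpifa1 UMIs, and without it the level was 146 CPM. Genes with another change in CP4 than in the other CPs numbered 0 with DESeq2, 7 with no filter, 6 with nuclei of at least 2000 genes, 0 without the 8% of nuclei with the most UMIs, and 5 to 16 without 1 library (5 without WT replicate 2, 6 without Tbx1+/- replicate 2, 11 without WT replicate 1 and 16 without Tbx1+/- replicate 1). The cause of these moves was not tested. Where 1 library of a genotype remains, it is assumed to vary like the others. For Tbx1 the difference of changes was -0.080 without the nuclei with the most UMIs and -0.13 to 0.16 without 1 library (-0.13 without WT replicate 1 and -0.065 without Tbx1+/- replicate 1). The ratios of the 35 leading, lowest and factor genes kept their sign with nuclei of at least 2000 genes and without the nuclei with the most UMIs, and in the latter 20 moved by more than 1 SD over libraries, by up to 0.67.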
